A study of Homo sapiens with 5 samples.

Results

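The insulin and insulin-like growth factor (IGF) pathway was described in TE7, a cell line from a human esophageal carcinoma, through 9 genes for its receptors, docking proteins and IGF-binding proteins. The list held 10 genes, IRS1, IRS2, INSR, IGF1R, IGF2R, IGFBP2, IGFBP4, IGFBP5, IGFBP6 and IGFBP7. A gene was kept if a probe set of the deposited table carried its name, which left all but IGFBP2; each of the 9 had 1 probe set, out of 14812 named genes in all. The genes were chosen by their log2 values in the CDH26 clones against the control clones, so these values are given as a description, with no test. There were 3 clones transduced with pMIRNA1-puro-CDH26, a construct that expresses the cadherin CDH26, and 2 clones transduced with pMIRNA1-puro-control. Every clone was grown from a single cell to confluence and then kept for 24 h in RPMI with 1.8 mM calcium, and each gave 1 Affymetrix Gene 2.0 ST array. A clone carries its own history as well as the construct, and both enter the differences given below.

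Insulin and the IGFs act through the receptor tyrosine kinases INSR and IGF1R, which phosphorylate docking proteins of the IRS family. IRS proteins recruit PI3-kinase, which activates AKT; AKT in turn activates mTOR complex signalling and keeps FOXO transcription factors out of the nucleus. Outside the cell, IGF-binding proteins hold IGFs and are cleaved by proteases, and IGF2R, a receptor without kinase activity, clears IGF2 and carries mannose-6-phosphate-tagged enzymes to lysosomes.

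The values are logarithms of each probe set relative to the control mean, taken here as log2 because the base is not recorded. They hold differences between clones but no level of expression, so levels cannot be compared between genes, and the labelled epithelial origin of TE7 could not be checked against the level of its markers. Values of control clones 1 and 2 are mirror images of each other in every gene. Many genes have equal values on several arrays, and 377 have the same value on all. CDH26 itself was at 2.87, 3.01 and 2.63 in CDH26 clones 1 to 3, against 0.01 in control clone 1 and −0.01 in control clone 2. With 5 arrays in all, precision is limited by their number.

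IRS2 was the member that stood furthest apart. It was lower in the CDH26 clones by 1.40 log2 units in the mean, a 2.64-fold difference. IGFBP6 was higher in the CDH26 clones by 0.39, and these were the only members whose CDH26 and control clones did not overlap. IGFBP7 had a mean difference of −1.02, but control clone 1 lay among the CDH26 clones. The differences of the remaining members lay between −0.25 and 0. In all, 7 of the 9 had a mean below that of the controls, 1 a mean above it and 1 no difference, beside 49.5% of all genes below and 47.9% above. The median difference of the 9 was −0.15, beside 0 over all 14812 genes. Of the members 1 lay wholly below the control clones and 1 wholly above, or 11.1% each way. Over all genes the shares were 9.93% below and 8.98% above, so these counts are near the background.

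**Figure D1:**
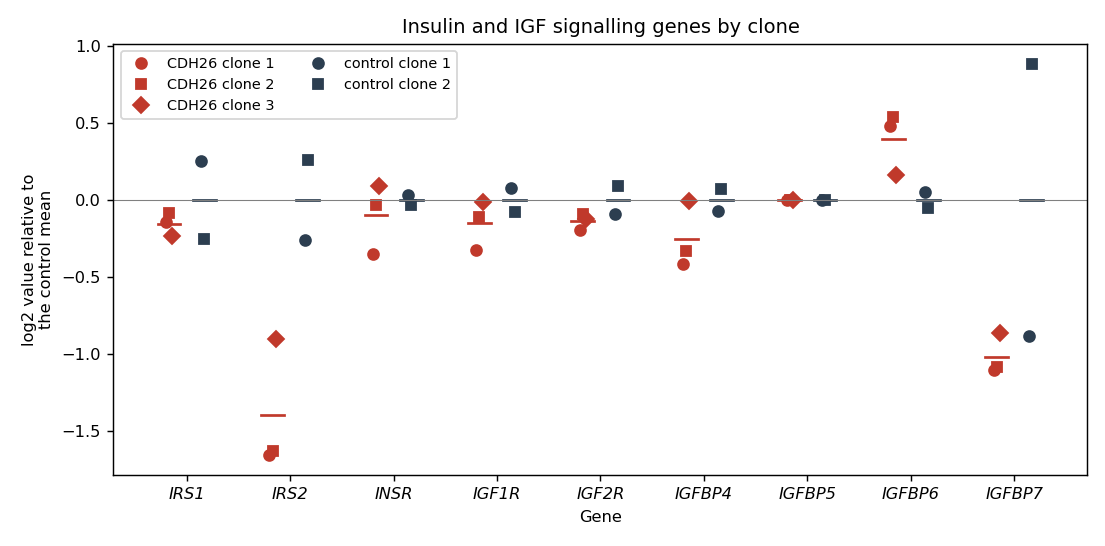
Each point is the log2 value of 1 clone relative to the control mean, with the 3 CDH26 clones (red) left of the 2 control clones (dark) for each gene and a bar at each group mean. IRS2 lies below the controls in all 3 CDH26 clones and IGFBP6 above, while the IGFBP7 value of control clone 1 (−0.89) lies among those of the CDH26 clones.

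IRS2 encodes a docking protein that passes the signal from INSR and IGF1R to PI3-kinase; its transcript is known to be raised by FOXO factors and lowered by insulin. Its log2 values were −1.66, −1.63 and −0.90 in CDH26 clones 1 to 3, against −0.26 in control clone 1 and 0.26 in control clone 2. CDH26 clones 1 and 2 were close to each other, CDH26 clone 3 lay between them and the controls, and the groups did not overlap. The CDH26 mean was −1.40 ± 0.43 (SD, n = 3), beside a control mean of 0 ± 0.37 (SD, n = 2). The gap between the control clones, 0.52, was 0.373 times the difference between the groups. Leaving out 1 clone at a time gave differences between −1.66 (without control clone 1) and −1.14 (without control clone 2). Over all named genes 6, IRS2 included, had a difference as low or lower, and 36 one as large in either direction.

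IRS1, the related docking protein, followed another pattern. Its values were −0.14, −0.08 and −0.23 in CDH26 clones 1 to 3, against 0.26 in control clone 1 and −0.26 in control clone 2. All 3 CDH26 clones lay between the control clones. The mean difference of −0.15 was smaller than the 0.51 between the controls, and its direction depended on which of them was used: it was 0.10 against control clone 2 alone and −0.41 against control clone 1 alone. Control clone 1 was the higher control for IRS1 and the lower one for IRS2.

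Promoter sequence is shown for IRS2 and IGFBP6, the members without overlap, because FOXO factors bind short motifs that a script can look for. RefSeq promoters (GRCh38.p14) were found for 8 of the 9 members, all but IGFBP7. The 250 bases before each start were searched on both strands for the forkhead motif GTAAACA and for CAAAACA, the core of the insulin response element; these motifs do not overlap in the windows shown. Each was found in 1 member window. IRS2 (chr13:109786584-109786833, minus strand) holds CAAAACA on the opposite strand, read here as TGTTTTG, from 40 to 34 bases before the start. IGFBP6 (chr12:53097417-53097666, plus strand) holds GTAAACA from 186 to 180 bases before the start. Capitals mark the motif, and the sequences run 5′ to 3′ towards the start.
IRS2: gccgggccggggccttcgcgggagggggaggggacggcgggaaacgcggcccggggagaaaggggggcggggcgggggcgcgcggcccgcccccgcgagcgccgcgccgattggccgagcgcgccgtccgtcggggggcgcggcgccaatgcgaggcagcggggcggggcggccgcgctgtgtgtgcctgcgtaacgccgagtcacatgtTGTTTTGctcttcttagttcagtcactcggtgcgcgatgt
IGFBP6: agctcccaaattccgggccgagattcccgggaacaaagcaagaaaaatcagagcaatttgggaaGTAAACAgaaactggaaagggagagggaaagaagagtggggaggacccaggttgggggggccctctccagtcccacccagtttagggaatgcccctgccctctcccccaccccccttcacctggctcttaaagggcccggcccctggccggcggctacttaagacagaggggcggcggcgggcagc
Of all 35116 promoter windows in the RefSeq table, 4.30% hold CAAAACA and 2.98% hold GTAAACA. The windows also differ in base composition: G and C make up 76.4% of the IRS2 window and 61.2% of the IGFBP6 window, beside a median of 58% over the table. A match is a description of the letters and says nothing of binding in these clones.

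The receptors differed little between the groups. INSR, the insulin receptor, was at −0.35, −0.03 and 0.09 in CDH26 clones 1 to 3, against 0.03 in control clone 1 and −0.03 in control clone 2. CDH26 clone 1 was low, CDH26 clone 3 was above both controls, and CDH26 clone 2 had the value of control clone 2. The mean difference of −0.10 was 0.03 without CDH26 clone 1. IGF1R, the receptor for IGF1, was at −0.33, −0.11 and −0.01 in CDH26 clones 1 to 3, against 0.08 in control clone 1 and −0.08 in control clone 2. CDH26 clones 1 and 2 were below both controls and CDH26 clone 3 between them. Its mean difference was −0.15, or −0.06 without CDH26 clone 1, −0.07 without control clone 1 and −0.23 without control clone 2.

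IGF2R, the clearance receptor for IGF2, was at −0.20, −0.09 and −0.13 in CDH26 clones 1 to 3, against −0.09 in control clone 1 and 0.09 in control clone 2. The value of CDH26 clone 2 equalled that of control clone 1, so the groups touched without crossing. The mean difference was −0.14. Against control clone 1 alone it was −0.05, and against control clone 2 alone −0.23. For each of the 3 receptors CDH26 clone 1 had the lowest value of all 5 clones.

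The binding proteins did not share a direction. IGFBP6, which binds IGF2 more tightly than IGF1, was at 0.48, 0.54 and 0.16 in CDH26 clones 1 to 3, against 0.05 in control clone 1 and −0.05 in control clone 2. All 3 CDH26 clones were above both controls, with CDH26 clone 3 nearest to them. The mean was 0.39 ± 0.20 in CDH26 clones (SD, n = 3) and 0 ± 0.08 in control clones (SD, n = 2), a 1.31-fold difference, and leaving out 1 clone gave 0.32 to 0.51. IGFBP4, an inhibitor of IGF action that the protease PAPPA cleaves, was at −0.41, −0.33 and −0.01 in CDH26 clones 1 to 3, against −0.07 in control clone 1 and 0.07 in control clone 2. CDH26 clones 1 and 2 were below both controls and CDH26 clone 3 lay between them, for a mean difference of −0.25.

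IGFBP7, a secreted protein of the wider binding-protein family with low affinity for IGFs, was at −1.11, −1.09 and −0.86 in CDH26 clones 1 to 3, against −0.89 in control clone 1 and 0.89 in control clone 2. Control clone 2 alone was high, and control clone 1 lay between CDH26 clones 2 and 3. The mean was −1.02 ± 0.14 in CDH26 clones (SD, n = 3) and 0 ± 1.26 in control clones (SD, n = 2). The gap between the control clones was 1.77, larger than the difference between the groups, and 37 genes of all 14812 had a gap at least as large. Without control clone 2 the difference was −0.13, and without control clone 1 it was −1.91. IGFBP5, a binding protein of the matrix and of muscle and bone, had the value 0 on all 5 arrays, so no difference could be read for it.

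**Figure D2:**
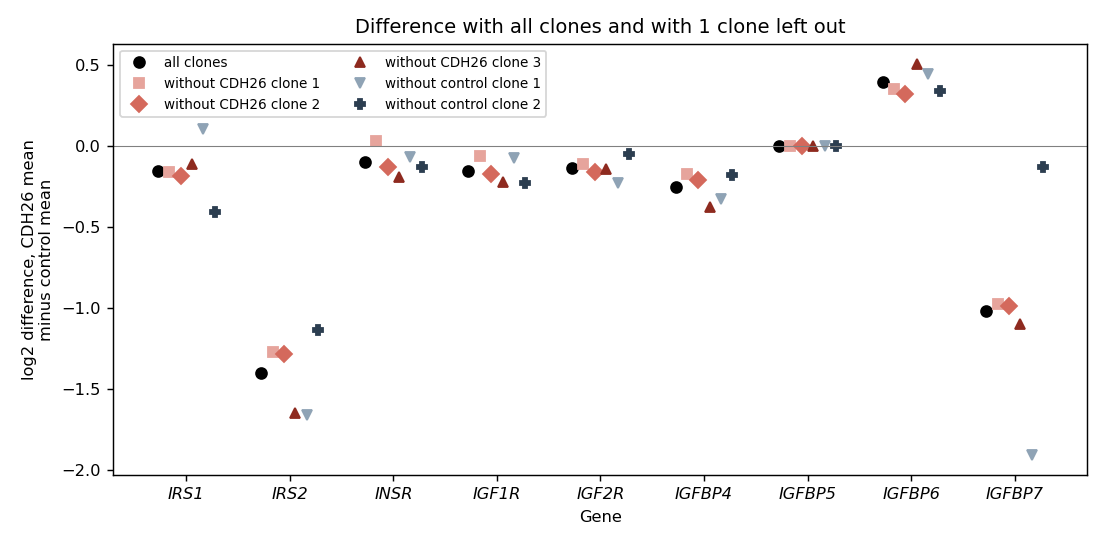
Points give the log2 difference of each gene, CDH26 mean minus control mean, with all clones (black) and with each clone left out in turn. IRS2 stays between −1.66 and −1.14 and IGFBP6 between 0.32 and 0.51, whereas IGFBP7 runs from −1.91 to −0.13 and IRS1 from −0.41 to 0.10.

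The clones were also compared in pairs over the 9 members. CDH26 clones 1 and 2 had a median absolute difference of 0.06 log2 units, and CDH26 clone 3 and control clone 1 one of 0.06. CDH26 clone 1 and control clone 1 were 0.38 apart in the median, the widest pair. Over all genes the medians of these pairs were 0.07, 0.06 and 0.10 in the same order. CDH26 clone 3 thus lay nearer to control clone 1 than to CDH26 clone 1, from which its median absolute difference was 0.31.

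The genes whose values came closest to those of IRS2 and IGFBP7, the members with the largest differences, were sought by Euclidean distance over the 5 clone values. All points share the same 5 arrays, so this is a description of these clones. Closest to IRS2 was HUNK, a serine/threonine kinase, at a distance of 0.18 log2 units. HUNK was at −1.68, −1.64 and −0.75 in CDH26 clones 1 to 3, against −0.33 in control clone 1 and 0.33 in control clone 2. Next came the actin-binding protein NEXN (0.58), TMEM158, a transmembrane protein (0.69), the noncoding RNA HAR1B (0.69) and MYEOV (0.71). Their control clones were 1.05 to 1.27 apart, against 0.52 for IRS2.

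Closest to IGFBP7 was L1CAM, a cell adhesion molecule of the immunoglobulin type, at a distance of 0.13. L1CAM was at −1.04, −1.12 and −0.79 in CDH26 clones 1 to 3, against −0.93 in control clone 1 and 0.93 in control clone 2. It was followed by SUSD2, a sushi-domain membrane protein (0.22), EDN1, which encodes the endothelin-1 precursor (0.23), MYOCD, the cofactor myocardin (0.31), and ENC1, a kelch-family protein (0.32). In each of these genes control clone 2 alone was above 0.

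**Figure D3:**
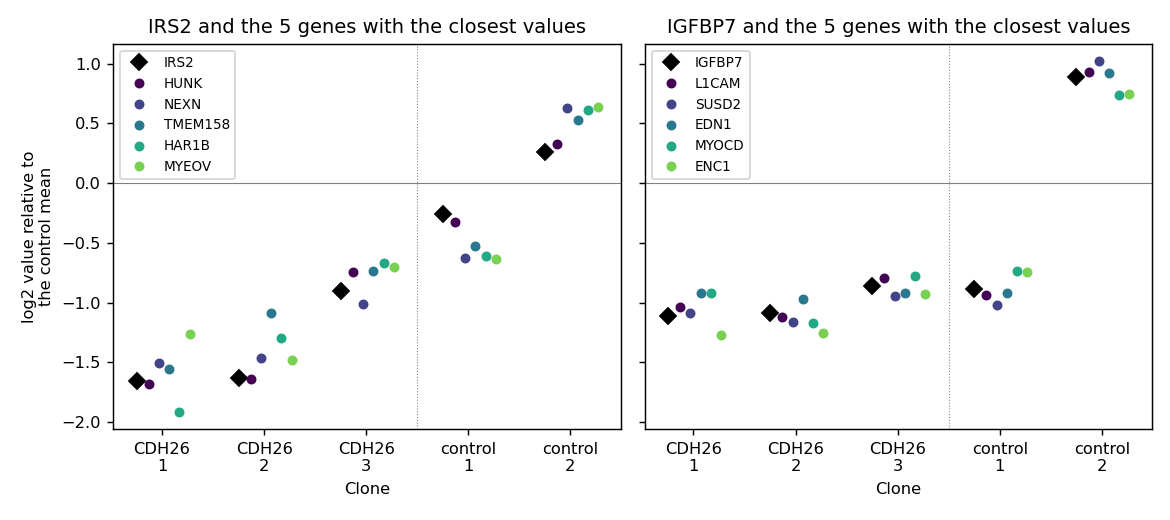
Log2 values relative to the control mean are drawn for IRS2 (left) and IGFBP7 (right, black diamonds) and for the 5 genes nearest to each (circles), clone by clone with CDH26 clones left of control clones. HUNK lies close to IRS2 in every clone, and the IGFBP7 set lies between −1.28 and −0.74 in the CDH26 clones and control clone 1 and between 0.74 and 1.02 in control clone 2.

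Genes next to a member in RefSeq order did not share the difference of IRS2 or IGFBP7 in full. The nearest measured genes beside IRS2 were MYO16-AS1, with a difference of −0.53 and overlapping groups, and COL4A2-AS1, at −0.07. MYO16-AS1 was at −0.90, −0.42 and −0.26 in CDH26 clones 1 to 3, against 0.37 in control clone 1 and −0.37 in control clone 2. Beside IGFBP7, NOA1 was at 0.20 and IGFBP7-AS1 at 0.03. SPRYD3, beside IGFBP6, was at 0.33 with overlapping groups, and SOAT2 on the other side was at −0.04.

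Other genes of the pathway were then read from 6 lists, of which 87 of 143 listed genes were measured. With limma and Benjamini-Hochberg adjustment over all genes, 0 of the 87 passed an adjusted p of 0.05, as did 0% of all 14812 genes. CDH26 itself did not pass, with a difference of 2.84 ± 0.13 (SE; limma adjusted p = 0.250). A gene that fails to pass here is thus not shown to be unchanged. At an unadjusted p of 0.05 in limma 6 were higher in the CDH26 clones (6.90%, beside 3.51% of all genes) and 3 lower (3.45%, beside 4%). The clones did not overlap in 18: 9 lay wholly above the controls and 9 wholly below, 10.3% each way, which is near the shares over all genes. The median difference was 0, as over all genes. A 2-fold higher value together with an unadjusted p under 0.05 was found for 1 gene, TXNIP, or 1.15% of the list beside 0.29% of all genes, and a 2-fold lower one for 0, beside 0.0338% of all genes.

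The list of FOXO factors and their known targets had 18 measured members of 27. Of these 4 lay wholly above the control clones (22.2%, beside 8.98% of all genes) and 0 below (beside 9.93%), and 10 had a higher mean and 8 a lower one in the CDH26 clones. The list leaves out IRS2, also known to be raised by FOXO factors, because it is a member. IRS2 lay wholly below the controls, at −1.40, so the counts above and below depend on that choice. TXNIP, the thioredoxin-binding protein that restrains glucose uptake, was at 1.76, 2.06 and 1.15 in CDH26 clones 1 to 3, against −0.28 in control clone 1 and 0.28 in control clone 2. All 3 CDH26 clones were well above both controls. The difference was 1.66 ± 0.35 (SE), with a limma adjusted p of 0.626.

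CCNG2, which encodes the growth-restraining cyclin G2, was at 0.58, 0.58 and 0.54 in CDH26 clones 1 to 3, against 0.08 in control clone 1 and −0.08 in control clone 2. These values were close within each group and did not overlap, with a difference of 0.56 ± 0.05 (SE) and a limma adjusted p of 0.616. Among the factors themselves, FOXO4 differed by 0.35 ± 0.10 (SE; limma adjusted p = 0.626). Outside the naming rule, FOXO1, at 0.25, also lay wholly above the controls, while FOXO3, at 0.01, had overlapping groups. In the median over the list CDH26 clones 1 to 3 were at 0.08, 0.08 and 0.12, against −0.02 in control clone 1 and 0.02 in control clone 2. Leaving out control clone 1 gave 8 genes above and 5 below, and leaving out control clone 2 gave 9 and 2. Over all genes 25.9% and 27.0% were then above and below without control clone 1, and 23.8% and 25.7% without control clone 2.

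PI3-kinase, AKT and mTOR genes gave 21 measured members of 37, of which 15 were lower in the mean of the CDH26 clones, as were 49.5% of all genes. Of these genes 6 lay wholly below the controls (28.6%, beside 9.93% of all genes) and 1 above (4.76%, beside 8.98%), with −0.07 as the list's median difference. TRIB3, a pseudokinase reported to bind AKT, was at −0.50, −0.65 and −0.50 in CDH26 clones 1 to 3, against −0.42 in control clone 1 and 0.42 in control clone 2. Control clone 2 stood apart, and the difference of −0.55 ± 0.28 (SE; limma adjusted p = 0.626) was −0.13 without it and −0.97 without control clone 1. PHLPP2, a phosphatase that acts on AKT, differed by −0.30 ± 0.14 (SE; limma adjusted p = 0.626). Outside the naming rule, PDPK1 (−0.16), EIF4EBP2 (−0.12), MTOR (−0.11) and MAPKAP1 (−0.09) also lay wholly below the controls.

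DDIT4, an inhibitor of mTOR complex signalling, was the gene of this list above the controls. It was at 0.61, 0.56 and 0.27 in CDH26 clones 1 to 3, against 0.13 in control clone 1 and −0.13 in control clone 2, and differed by 0.48 ± 0.15 (SE; limma adjusted p = 0.626). Without control clone 1 the list had 7 genes above (33.3%, beside 25.9% of all genes) and 10 below (47.6%, beside 27.0%). Without control clone 2 it had 5 above (23.8%, beside the same share of all genes) and 10 below (47.6%, beside 25.7%). The list's median was then −0.03 and −0.02 in the same order.

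**Figure D4:**
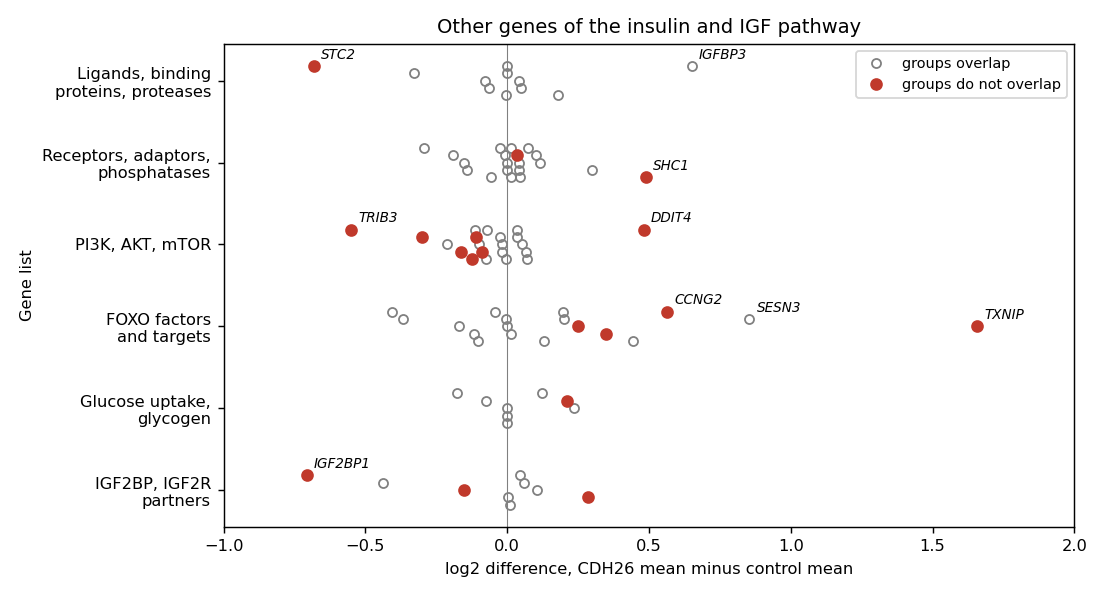
Each circle is 1 measured gene of 6 pathway lists outside the 9 genes above, placed by its log2 difference, CDH26 mean minus control mean; filled circles have no overlap between the groups, and vertical offsets only separate the points. TXNIP, at 1.66, lies furthest from 0, and 7 of the 87 genes lie at least 0.5 from it.

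Ligands, binding proteins and their proteases had 11 measured members of 15, of which 1 lay wholly below the controls and 0 above. This share, 9.09%, is near the 9.93% of all genes. The gene was STC2, stanniocalcin-2, which inhibits the proteases that release IGFs from binding proteins. STC2 was at −0.81, −0.82 and −0.42 in CDH26 clones 1 to 3, against −0.22 in control clone 1 and 0.22 in control clone 2. The difference was −0.68 ± 0.21 (SE; limma adjusted p = 0.626), with CDH26 clone 3 nearest to the controls as for IRS2.

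Receptors, adaptors and phosphatases had 20 measured members of 29, with 2 above the controls and 0 below. The share above, 10%, is near the 8.98% of all genes. SHC1, an adaptor that links the receptors to RAS, was at 0.59, 0.59 and 0.29 in CDH26 clones 1 to 3, against 0.03 in control clone 1 and −0.03 in control clone 2. It differed by 0.49 ± 0.11 (SE; limma adjusted p = 0.626), while its partner GRB2 differed by 0.03 ± 0.03 (SE; limma adjusted p = 0.676). Neither passed the adjusted threshold.

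Genes of glucose uptake and glycogen were thinly covered, with 8 measured members of 21 and 1 above the controls (12.5%, beside 8.98% of all genes). VAMP2, a vesicle protein of glucose transporter delivery, differed by 0.21 ± 0.11 (SE; limma adjusted p = 0.626), or 0.11 without control clone 1. Among the 9 measured of 14 IGF mRNA-binding proteins and trafficking partners of IGF2R, 1 lay above the controls (11.1%, beside 8.98% of all genes) and 2 below (22.2%, beside 9.93%). IGF2BP1, an RNA-binding protein first known for binding IGF2 transcripts, was at −1.06, −0.83 and −0.23 in CDH26 clones 1 to 3, against −0.21 in control clone 1 and 0.21 in control clone 2. CDH26 clone 3 lay just below control clone 1, and the difference was −0.71 ± 0.31 (SE; limma adjusted p = 0.626). PLIN3, a lipid droplet protein reported to bind the tails of mannose-6-phosphate receptors, differed by 0.29 ± 0.08 (SE) and VPS26A, a retromer subunit, by −0.15 ± 0.05 (SE).

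**Figure D5:**
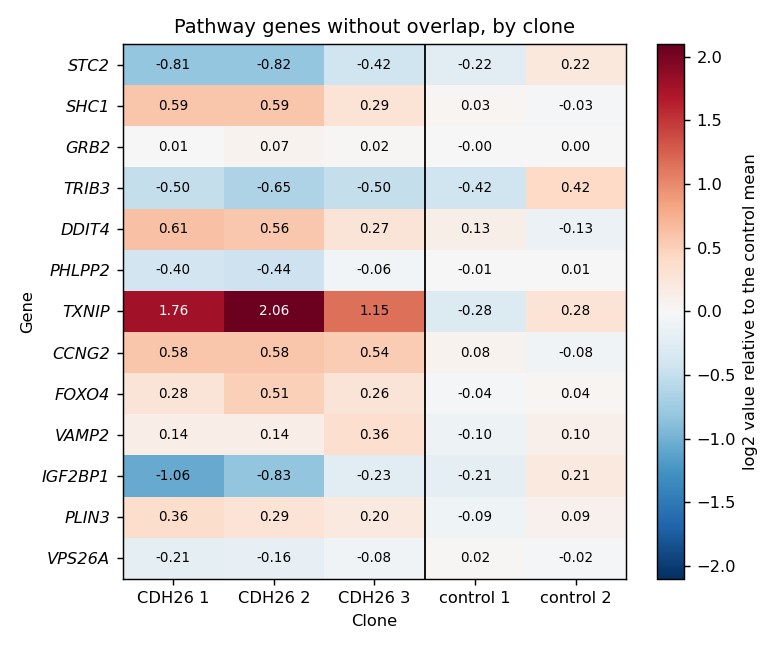
Log2 values relative to the control mean for the pathway genes without overlap that were named by rule, up to 3 per list, with the 3 CDH26 clones left of the 2 control clones. In TRIB3 control clone 1 (−0.42) lies near the CDH26 clones, and in STC2, SHC1, DDIT4, TXNIP and IGF2BP1 CDH26 clone 3 is nearest to the controls.

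Markers of cell identity moved with the groups in part. Of 7 measured epithelial markers of 9, 3 lay wholly above the controls (42.9%, beside 8.98% of all genes) and 1 below (14.3%, beside 9.93%), with a median difference of −0.22. KRT14 differed by 2.72, KRT5 by 0.61 and KRT19 by 0.35, while KRT7 was at −0.41, KRT18 at −0.29, and KRT8 and EPCAM at −0.22 each. KRT5 cleared the controls narrowly, with CDH26 clone 3 at 0.498 and control clone 1 at 0.494. Of 3 measured fibroblast markers of 9, the matrix proteoglycan LUM lay wholly above the controls, at 1.59, while DCN, at 0.02, and THY1, at −0.16, overlapped. The 2 measured leukocyte markers of 6 and the 2 endothelial ones of 4 differed by 0.04 at most, to 2 decimals. Of these CD14, at −0.04, lay wholly below the controls and the others overlapped. Every clone grew from a single cell of the line, so the markers are given as genes of these clones and not as a measure of mixed cell types. The part of the markers in the differences of the members was not tested. In RNA of whole cultures, fewer cells that express a gene and less of its RNA per cell cannot be told apart.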

How the data were processed

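Total RNA of 5 clones was hybridised to 1 array each. Per the submitters' processing notes the software was Affymetrix Expression Console; version, summarisation, background correction and genome build are not stated. The deposited values are logarithms taken as log2. Both control values of a probe set sum to 0 within 1e-06 in every row, so the authors had set each row relative to the control mean.

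Of 44607 probe sets 15835 carried 1 gene name, and probe sets of a gene were averaged into 14812 genes; no filter on brightness was possible. The construct was the single term of a two-sided limma fit (version 3.58.1, lmFit and eBayes, R 4.3.3), p-values were adjusted by Benjamini-Hochberg over every named gene, and the fit was tested on simulated data. Values within 1e-05 counted as tied, and groups did not overlap where all 3 CDH26 clones lay beyond both controls. The members and lists were chosen with earlier results of these data known, so no list was tested as a set. Named were the members, CDH26, up to 3 genes per pathway list with the largest difference among those without overlap, the 5 genes nearest to each of the most different members, the nearest measured gene on each side of a member, and cell type markers. Alternatives were clones left out, a replicate block, array weights, a robust variance with trend, array medians, single probe sets, a threshold of 0.1, natural logarithms and only genes without ties; counts per list without each clone were chosen after seeing the data. Protein sequences were not used here. Figures were drawn with matplotlib 3.10.9.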

Additional observations from a re-analysis of the deposited data

How the results depend on the processing

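Array medians were all 0, so centring on them changed nothing. The count of genes past an adjusted p of 0.05 in limma, 0 of 14812 with 1113 at an unadjusted p under 0.05, ran from 0 to 186 with a clone left out; the 186 came without control clone 1, where the lone control must be taken to vary as the CDH26 clones do, and 86 were higher and 100 lower. The count was 1, CDH26, among the 6857 genes without ties between arrays (limma adjusted p = 0.0106). Fewer genes are tested there, and the unadjusted limma p of CDH26 was also lower, 1.55e-06 beside 3.06e-05 over all genes. For the pathway lists the adjusted count stayed at 0, and the count of 2-fold genes at 1, when any of the CDH26 clones was left out. Both counts changed without control clone 1 but not without control clone 2, so they depend on which control is kept. TXNIP was at 1.37 without control clone 1 and at 1.94 without control clone 2. The count without overlap, 18 with all clones, ran from 20 to 57 with a clone left out, with 57 without control clone 1 and 48 without control clone 2. Without control clone 1, 34.5% of the 87 genes lay above and 31.0% below, beside 25.9% and 27.0% of all genes. The shares without control clone 2 were 28.7% and 26.4%, beside 23.8% and 25.7% of all genes. Fewer clones make overlap rarer by construction. Trend and robust variance, array weights, single probe sets and a threshold of 0.1 left the adjusted counts at 0. Reading the values as natural logarithms rescales all of them alike, so it cannot change a p-value and is no check of the adjusted counts. Natural logarithms would put IRS2 at −2.02 and IGFBP6 at 0.57.

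With the replicate number as a block 0 genes passed and 15 of the 87 pathway genes had an unadjusted limma p under 0.05, against 9 without it. Over all 14812 genes the counts were 1179 with the block and 1113 without it. CDH26 clone 1 and control clone 1 deviated from their group means with a correlation of −0.20 over genes, and the clones numbered 2 with −0.21. The control deviations are mirror images of each other, so these correlations are not separate checks. They cannot show whether the numbers pair the clones. IRS2 was at −1.65 under the block, which leaves CDH26 clone 3 out of the estimate.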

Other observations

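Some pathway genes outside the naming rule, chosen here after their values were seen, had large differences with overlapping groups. IGFBP3, the main IGF carrier of serum, was at 0.62, 0.98 and 0.36 in CDH26 clones 1 to 3, against −0.36 in control clone 1 and 0.36 in control clone 2, a difference of 0.65 ± 0.31 (SE; limma adjusted p = 0.626). CDH26 clone 3 and control clone 2 were level for IGFBP3. SESN3, a stress-induced restraint on mTOR signalling and a FOXO target, was at 0.62, 1.64 and 0.30 in CDH26 clones 1 to 3, against 0.47 in control clone 1 and −0.47 in control clone 2. CDH26 clone 2 was the highest, CDH26 clone 1 was also above both controls, and CDH26 clone 3 lay between them. The difference was 0.85 ± 0.56 (SE; limma adjusted p = 0.626). Of the IGF2BP family, IGF2BP2 was at −0.90, −0.46 and 0.05 in CDH26 clones 1 to 3, against −0.07 in control clone 1 and 0.07 in control clone 2, and IGF2BP3 differed by 0.05 ± 0.06 (SE).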
